A study of Mus musculus with 8 samples.

Results

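The PGC-1, PPAR and ERR regulators are 10 genes that set how much fatty acid oxidation and mitochondrial respiration a heart muscle cell can carry out. They are the coactivators Ppargc1a, Ppargc1b and Perm1, the corepressor Nrip1, the PPAR receptors Ppara and Ppard, their partner Rxra, and the ERR receptors Esrra, Esrrg and Esrrb. They were chosen by name from the 41128 genes of a table of normalized counts, in which 9 were found by symbol. Ppard carries no symbol there and was found by its Ensembl identifier, ENSMUSG00000002250. All 10 passed the filter on low values.

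RNA came from the left ventricle of 8 mice of the FVB strain, aged 8 to 12 weeks. The 4 Nppb KO animals, labelled HOM, carry a deletion made by CRISPR in exon 2 of Nppb, the gene of the B-type natriuretic peptide precursor. The 4 wild-type (WT) animals were their littermates. The protocol text of all 8 samples also names mice of a Myh6-MerCreMer line, which drives an inducible Cre in heart muscle, and of the reporter lines nTnG and CAG-Sun1/sfGFP, kept on FVB/N, without tying these alleles to any of the 8 animals. Sex, the number of founder lines and the animals' feeding state or time of day at collection are not stated.

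Nppb itself had 4.13, 1.54, 4.09 and 2.25 normalized counts in KO replicates 1 to 4, against 2713, 1840, 2761 and 4619 in WT replicates 1 to 4, so every library matched its label. The libraries held 20284865 to 34742840 reads in genes. Summed cardiomyocyte markers (9 of 9 detected) ran from 2686910 to 2965786 normalized counts in KO and from 2829386 to 3011933 in WT. Summed atrial markers came to 50.6 to 91.2 normalized counts over all libraries. Of the 5 markers, Sln, Myl7 and Bmp10 were near 0, with at most 3.30, 7.58 and 1.02. The other 2, Myl4 and Dkk3, passed the filter on low values. Their log2 fold changes, KO over WT, lay from 0.09 to 0.41, with overlapping groups. Whole tissue was measured, so fewer cells of a type and less RNA per cell cannot be told apart.

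Transcription of fuel genes in the heart rests on nuclear receptors that bind DNA and on coregulators that bind the receptors. PPARs sense fatty acids and bind DNA as a pair with an RXR receptor. ERRs bind DNA without a known natural hormone and drive genes of the citric acid cycle and the respiratory chain. PGC-1 proteins bind both kinds of receptor and recruit enzymes that open chromatin, and Nrip1 (RIP140) binds the same receptors and holds their targets down.

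The 250 bases before the RefSeq start of each promoter (GRCm38.p6, the build named mm10 in the processing notes) were searched for motifs. The windows of Ppargc1a and Ppard, the members whose groups did not overlap, and of Perm1, the most abundant member per length, are printed as far as the first base that GENCODE M21 gives to the gene. Ppargc1a was read at chr5:51567727-51567975 on the minus strand, Ppard at chr17:28232504-28232699 on the plus strand and Perm1 at chr4:156215677-156215867 on the plus strand, which left 249, 196 and 191 bases. Each runs 5′ to 3′ along its gene, and capitals mark a motif match.
Ppargc1a: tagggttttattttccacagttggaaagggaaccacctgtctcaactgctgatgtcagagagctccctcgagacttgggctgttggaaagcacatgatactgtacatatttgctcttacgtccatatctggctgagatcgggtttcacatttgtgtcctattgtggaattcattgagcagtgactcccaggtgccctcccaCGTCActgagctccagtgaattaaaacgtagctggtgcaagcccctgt
Ppard: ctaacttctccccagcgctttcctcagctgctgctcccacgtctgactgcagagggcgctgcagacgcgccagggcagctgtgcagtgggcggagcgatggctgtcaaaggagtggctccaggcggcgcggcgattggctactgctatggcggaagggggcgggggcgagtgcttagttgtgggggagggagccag
Perm1: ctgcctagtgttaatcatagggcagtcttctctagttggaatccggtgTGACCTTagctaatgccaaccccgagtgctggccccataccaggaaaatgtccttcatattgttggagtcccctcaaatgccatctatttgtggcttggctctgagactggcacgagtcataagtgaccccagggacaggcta
The capitals in Ppargc1a are the cyclic AMP response half-site TGACG read on the opposite strand, which begins 49 bases before the RefSeq start. CREB family factors bind such sites, and cyclic AMP signalling is a known inducer of Ppargc1a. The half-site stood in 17.8% of all 32851 promoter windows of this length, and the full palindrome TGACGTCA stood in 1.55%. The capitals in Perm1 are the core of the ERR element, AAGGTCA, on the opposite strand, beginning 202 bases before the RefSeq start. That core stood in 4.08% of all windows, and the longer ERR element TNAAGGTCA in 1.14%. The whole Ppard window held none of the motifs searched.

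The other motifs searched, on both strands, were the MEF2 element (CTA and TAG with 4 bases between, in 3.20% of all windows), the E-box CACGTG (6.02%), the NRF1 element (GCGCA and GCGC with 1 base between, 3.74%) and the DR1 element of PPAR and RXR (AGGTCA repeated with 1 base between, 0.0335%). AAGGTCA lies within TNAAGGTCA and TGACG within TGACGTCA, and both short forms were added after the sequences had been read. The table held 15 promoters of 9 members. Of these, an Esrrg promoter held a MEF2 element 22 bases before its start. A Ppara promoter held an NRF1 element 31 bases and a half-site TGACG 222 bases before its start. Of the Esrrb promoters, the first held 2 half-sites TGACG and the other no match. A second Rxra promoter held AAGGTCA 49 bases before its start. A match describes letters and does not show that a factor binds.

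Among the coactivators, Ppargc1a (PGC-1α, ENSMUSG00000029167, minus strand of chromosome 5, 51454250 to 51567726 in mm10) had the largest difference of any member. It had 2045, 1868, 1779 and 2510 normalized counts in the 4 KO ventricles, against 3260, 2604, 2580 and 3049 in the 4 WT ventricles. The highest KO animal stood just below the lowest WT animal, so the groups did not overlap but came close. The mean was 2050 ± 326 normalized counts in KO and 2873 ± 336 in WT (SD, n = 4 each), 28.6% lower in KO. The log2 fold change, KO over WT on the log2(normalized count + 1) scale used throughout, was -0.49 (SE 0.12, 95% interval -0.78 to -0.21).

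In the limma test across all 16590 genes with a mean of at least 10, Ppargc1a had an unadjusted p of 0.00410 and an adjusted p of 0.661, so it was not called at 0.05. That fit called 0.00603% of genes lower and 0.00603% higher in KO, and no member. With DESeq2 on whole reads recovered from the table, Ppargc1a was the only member called, with an adjusted p of 0.00359, and Ppard got no adjusted p. There 0.253% of genes with an adjusted p were called lower and 0.0379% higher. edgeR's quasi-likelihood test gave it an adjusted p of 0.656. In the authors' deposited table it was 28.7% lower in KO with an adjusted p of 0.00395, where 20 genes, or 0.337% of those with an adjusted p, were called lower and 0.0337% higher. The other members in the authors' deposited table had adjusted p-values of 0.622 to 0.978, and Ppard and Esrrb had none.

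The spread of Ppargc1a between animals was wide for its level. Its log2 SD within groups was 0.195, against a median of 0.0633 for the 500 genes nearest to it in mean count, which put it at percentile 96.6 of them. Counting error at its lowest depth, 1741 reads, was 2.40%, while its coefficient of variation between animals was 15.9% in KO and 11.7% in WT. Of the 5252 genes with a mean of at least 500 normalized counts, a limit set after the values were seen, only Nppb, Pdk4 and Mir6236 had a lower log2 fold change. In that set, 0.133% of genes had a log2 fold change of -0.4 or lower.

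Ppargc1b (PGC-1β), the close relative of Ppargc1a, had 727, 835, 665 and 822 normalized counts in KO, against 836, 791, 872 and 849 in WT. The groups overlapped: KO replicates 1 and 3 lay below every WT animal, and KO replicates 2 and 4 lay among the WT animals. Its log2 fold change was -0.14 (SE 0.07, 95% interval -0.29 to 0.01, adjusted p = 0.796 by limma). Perm1, a muscle-specific regulator that acts with PGC-1α and ERRs, had 7604, 7509, 7437 and 8006 normalized counts in KO, against 8053, 7581, 8432 and 8190 in WT. The 2 groups of Perm1 overlapped, with a log2 fold change of -0.08 (SE 0.04, 95% interval -0.17 to 0.02, adjusted p = 0.808 by limma). Perm1 lies on chromosome 4, as Nppb does.

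The corepressor Nrip1 had 1025, 812, 811 and 939 normalized counts in KO and 932, 977, 840 and 769 in WT. These ranges overlapped almost wholly, and the log2 fold change was 0.03 (SE 0.09, 95% interval -0.17 to 0.23, adjusted p = 0.981 by limma). Nrip1 shared the wide spread of the coactivator, with a log2 SD within groups at percentile 93.4 of the 500 genes nearest in mean count. The other 8 members stood at percentile 12.2 (Ppard) to 82.4 (Ppargc1b).

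**Figure D1:**
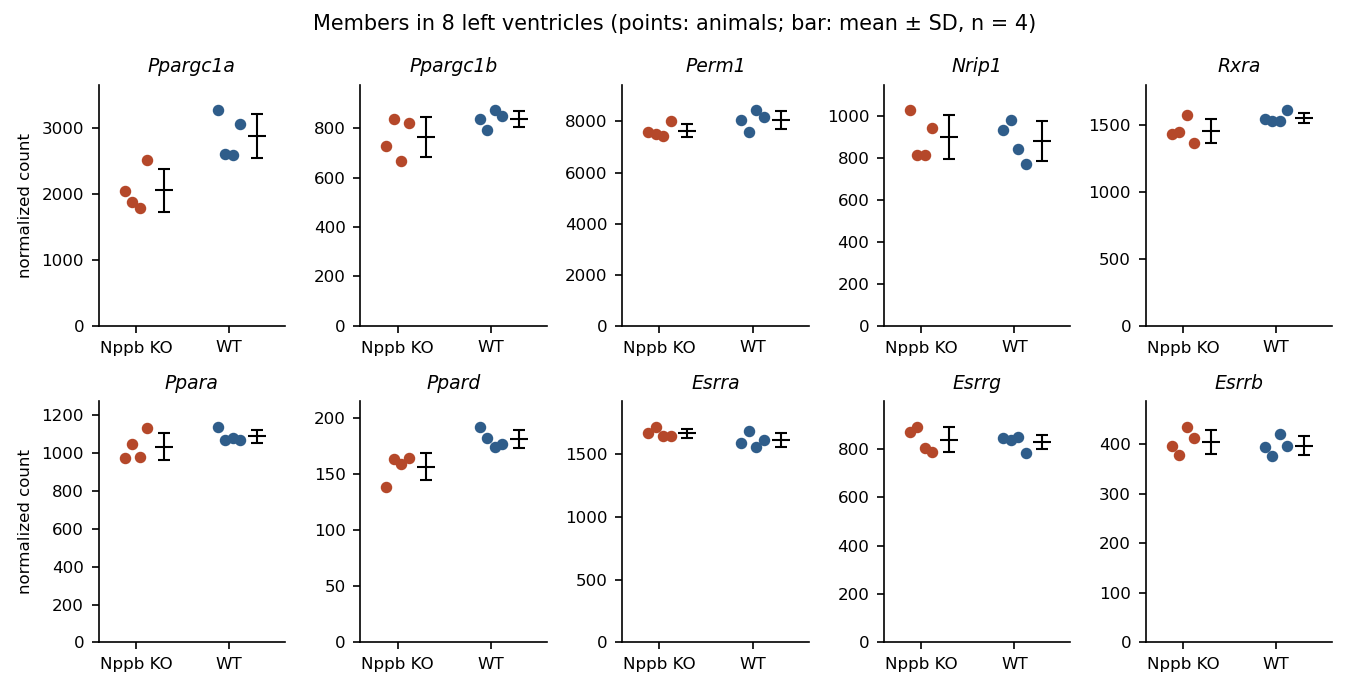
Normalized counts of the 10 members (vertical axes, each starting at 0) in the 4 Nppb KO (left, red) and 4 WT (right, blue) ventricles, with a bar for mean ± SD of each group. In the Ppargc1a panel every KO animal lies at or below 2510 and every WT animal at or above 2580, and the ERR panels overlap throughout.

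Of the PPAR receptors, Ppard (PPARδ) was the other member whose groups did not overlap. It had 139, 164, 159 and 164 normalized counts in KO, against 192, 182, 174 and 177 in WT, with means of 157 ± 12.1 in KO and 181 ± 8.01 in WT (SD, n = 4 each). Every KO animal was below every WT animal. Its log2 fold change was -0.21 (SE 0.09, 95% interval -0.41 to -0.02), with an unadjusted limma p of 0.0356 and an adjusted p of 0.768. Ppard rested on 131 to 252 reads per library, the fewest of the members, and the counting error at 131 reads was 8.74%. Over all tested genes, 1.74% had every KO animal below every WT animal, against 2 of the 10 members, and 2.03% had the opposite order, against 0 members.

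Ppara (PPARα), the main PPAR of heart muscle and a driver of fatty acid oxidation genes, had 976, 1051, 981 and 1133 normalized counts in KO, against 1140, 1071, 1079 and 1070 in WT. KO replicates 1 to 3 lay below all WT animals, and KO replicate 4 lay among them. The log2 fold change was -0.08 (SE 0.06, 95% interval -0.19 to 0.04, adjusted p = 0.843 by limma). Rxra (RXRα), the DNA-binding partner of PPARs, had 1436, 1448, 1574 and 1363 normalized counts in KO, against 1543, 1530, 1529 and 1609 in WT. KO replicate 3 of Rxra lay among the WT animals and the other KO animals below them, with a log2 fold change of -0.10 (SE 0.05, 95% interval -0.20 to 0.01, adjusted p = 0.801 by limma).

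The ERR receptors had estimates within 0.05 of 0. Esrra (ERRα), a receptor for which PGC-1α serves as a ligand in place of a hormone, had 1667, 1719, 1642 and 1643 normalized counts in KO and 1591, 1687, 1561 and 1617 in WT. Its log2 fold change was 0.05 (SE 0.04, 95% interval -0.05 to 0.14, adjusted p = 0.886 by limma). Esrrg (ERRγ), which is abundant in heart and needed for its oxidative metabolism after birth, had 871, 891, 802 and 788 in KO and 844, 837, 850 and 784 in WT. Its estimate was 0.02 (SE 0.06, 95% interval -0.10 to 0.13, adjusted p = 0.984 by limma). Esrrb (ERRβ) had 396, 377, 434 and 411 in KO and 394, 375, 420 and 396 in WT, with an estimate of 0.03 (SE 0.07, 95% interval -0.11 to 0.17, adjusted p = 0.969 by limma). The groups overlapped for all ERR genes. Their 95% intervals, not adjusted over genes, each include 0 and reach from -0.11 to 0.17 on the log2 scale, so differences within them are not excluded.

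Across the 10 members, the log2 fold change was below 0 for 6 (all but Nrip1 and the ERR genes), with a median of -0.08, beside 49.1% of all tested genes below 0 and a median of 0.002. Unadjusted limma p-values were under 0.05 for 2 members, Ppargc1a and Ppard, both lower in KO, beside 6.26% of all tested genes in either direction, 3.29% lower and 2.98% higher.

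**Figure D2:**
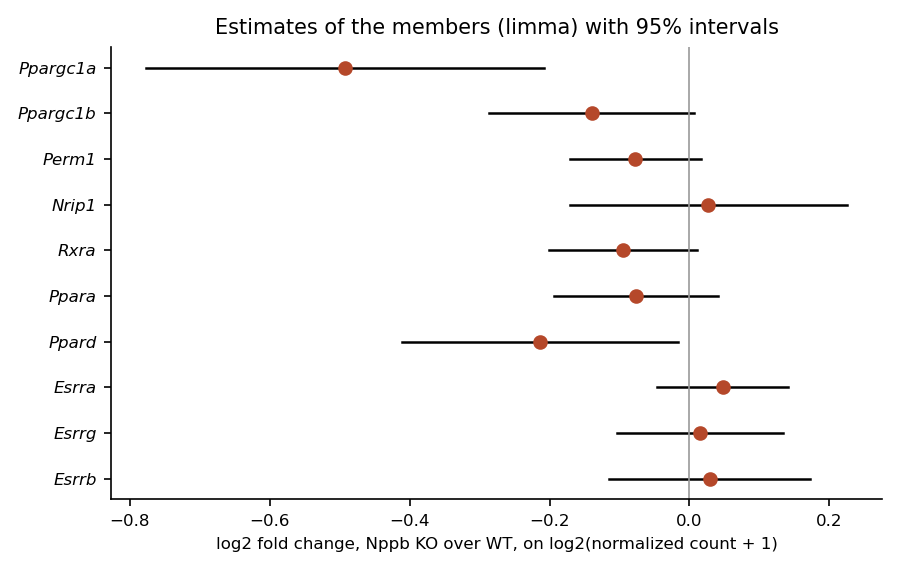
Log2 fold change of each member, Nppb KO over WT (horizontal axis), from limma on log2(normalized count + 1), as points with 95% intervals. Ppargc1a lies farthest left at -0.49, Ppard at -0.21 is the other member whose interval leaves out 0, and the ERR genes sit within 0.05 of 0.

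Levels of different members were compared as normalized count per kilobase of merged exons (GENCODE M21). Perm1 stood highest, at 1958 ± 65.2 in KO and 2067 ± 91.8 in WT (SD, n = 4 each). Next over all 8 animals came Esrra (380 in KO, 368 in WT), Ppargc1a (311 in KO, 436 in WT), Ppara (270 in KO, 284 in WT) and Rxra (266 in KO, 284 in WT). Ppargc1b followed (191 in KO, 210 in WT), then Esrrg (135 in KO, 133.5 in WT), Nrip1 (78.3 in KO, 76.8 in WT), Esrrb (66.9 in KO, 65.5 in WT) and last Ppard (20.8 in KO, 24.1 in WT). Ranges of neighbours in this order overlapped between Ppara and Rxra and between Nrip1 and Esrrb in both groups. Esrra and Ppargc1a overlapped in KO. In WT every Ppargc1a animal (391 to 495) lay above every Esrra animal (356 to 385). Ppargc1a and Ppara overlapped in KO but not in WT. With the length of the longest transcript in place of merged exons, the order over all 8 animals was the same, but some ranges were not. Esrra then stood above Ppargc1a without overlap in both groups, also in WT (648 for Esrra, 445 for Ppargc1a). Nrip1 then stood apart from Esrrb in KO but not in WT.

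**Figure D3:**
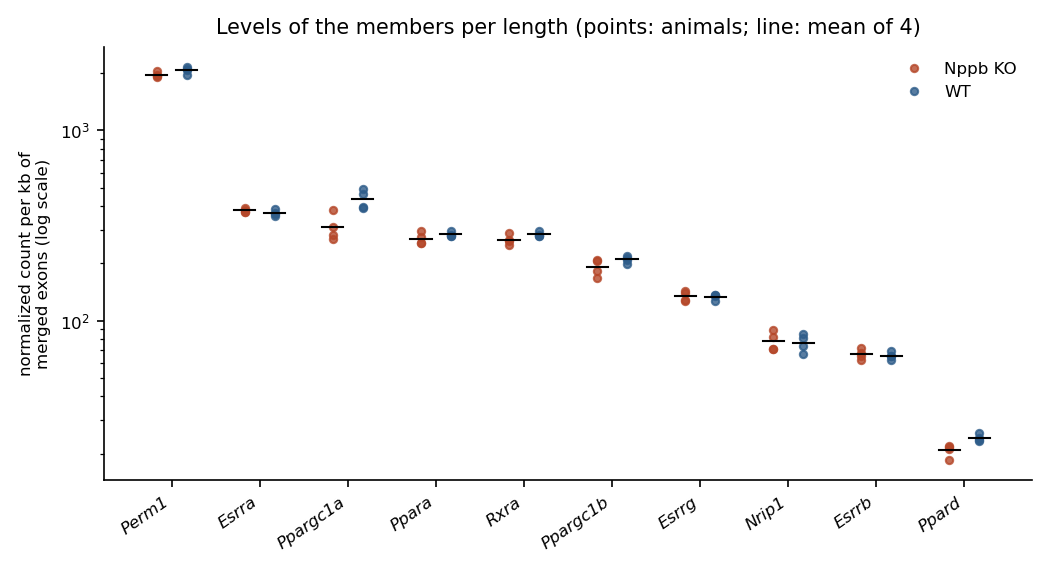
Normalized count per kilobase of merged exons (vertical axis, log scale) for each member, ordered by level, with a point per animal for Nppb KO (left, red) and WT (right, blue) and a line at each mean. Perm1 lies near 2000, Ppard near 20, and the Ppargc1a points of KO lie at or below 381 and those of WT at or above 391.

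Within the PGC-1 pair, Ppargc1a made up 61.8 ± 3.12% of the summed level per kilobase in KO and 67.4 ± 2.60% in WT (SD, n = 4 each). KO shares ran from 57.5% to 64.9% and WT shares from 64.2% to 70.2%, an overlap of 1 KO animal with the lowest WT animal. The summed level of the pair was 502 ± 62.3 per kilobase in KO and 646 ± 52.7 in WT, and the ranges, 437 to 587 in KO and 593 to 704 in WT, did not overlap. Among the PPAR genes, Ppara made up 75.4% in KO and 76.1% in WT, and Pparg, a receptor best known from fat cells, 18.8% in KO and 17.5% in WT. Ppard made up 5.83 ± 0.375% in KO and 6.46 ± 0.124% in WT, with ranges that did not overlap (5.47% to 6.23% in KO, 6.31% to 6.62% in WT). ERR shares were alike in the groups: Esrra had 65.3% in KO and 64.9% in WT, Esrrg 23.2% in KO and 23.6% in WT, and Esrrb 11.5% in KO and 11.6% in WT. Rxra made up 34.4% of the RXR level in KO and 35.2% in WT, less than Rxrg, at 47.2% in KO and 46.5% in WT. The shares depend on the length used. By the longest transcript, Ppard made up 9.58% in KO and 10.6% in WT, still without overlap, and Esrra 72.8% in KO and 72.5% in WT.

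Ratios within an animal do not depend on depth, and 4 pairs of members were compared with exact two-sided permutation tests over 70 assignments, for which the smallest possible p is 0.0286. Ppargc1a over Ppargc1b was 2.69 ± 0.342 in KO and 3.44 ± 0.403 in WT, a log2 difference of -0.35 (exact p = 0.0571, 0.0762 adjusted over 4 pairs). Ppargc1a over Nrip1, a coactivator set against a corepressor of the same receptors, was 2.29 ± 0.284 in KO and 3.30 ± 0.559 in WT, a log2 difference of -0.52 (exact p = 0.0571, adjusted 0.0762). Ppara over Ppard was 6.63 ± 0.412 in KO and 6.01 ± 0.143 in WT, a log2 difference of 0.14 (exact p = 0.0571, adjusted 0.0762). Esrra over Esrrg was 1.99 ± 0.0846 in KO and 1.95 ± 0.107 in WT, a log2 difference of 0.03 (exact p = 0.514). No pair passed 0.05, and the groups overlapped in each.

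The 4 close relatives outside the members showed no call with limma, edgeR or DESeq2, and none had an unadjusted limma p under 0.05. Pprc1, the third PGC-1 family coactivator, had a log2 fold change of 0.08 (SE 0.08), Pparg 0.05 (SE 0.11), Rxrb -0.05 (SE 0.06) and Rxrg -0.04 (SE 0.07), with limma adjusted p-values of 0.899 to 0.966 and overlapping groups.

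Target genes of the receptors were read from lists of 34 PPAR targets and 35 ERR targets, which share Acadm, Cpt1b and Fabp3. Of the 32 PPAR targets tested, none passed the threshold with limma or edgeR and 1 passed with DESeq2. The estimate was below 0 for 31, with a median of -0.11, beside 49.1% and a median of 0.002 over all tested genes. Unadjusted p was under 0.05 for 12, each lower in KO, beside 3.29% of all tested genes lower at that level. Every KO animal was below every WT animal for 4, Slc27a1, Cpt2, Pdk4 and Decr1, beside 1.74% of all tested genes.

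The call with DESeq2 was Slc27a1, a fatty acid transport protein, with an adjusted p of 0.0264. It had 1528, 1566, 1557 and 1569 normalized counts in KO, against 1773, 1718, 2046 and 1865 in WT, a log2 fold change of -0.25 (SE 0.05, adjusted p = 0.319 by limma). The KO animals lay within a narrow band below all WT animals. Cpt2, the inner-membrane carnitine palmitoyltransferase, had 2320, 2590, 2687 and 2763 in KO, against 2848, 3060, 3059 and 2989 in WT (log2 fold change -0.21, SE 0.05, adjusted p = 0.495 by limma). Its KO animals, too, lay below all WT animals.

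Pdk4, the kinase that shuts glucose carbon out of the citric acid cycle, was picked out after its values were seen. It had 2212, 2140, 2540 and 1526 normalized counts in KO, against 2739, 2929, 5102 and 4140 in WT, a log2 fold change of -0.80 (SE 0.26, adjusted p = 0.753 by limma). The WT animals spread widely, and the highest KO animal lay below the lowest of them.

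Among the ERR targets the estimates lay closer to 0. Of 35 tested, none passed the threshold with limma, edgeR or DESeq2 and none had an unadjusted limma p under 0.05. The estimate was below 0 for 29, with a median of -0.03 and a range from -0.15 to 0.17, beside 49.1% and a median of 0.002 over all tested genes. The cardiomyocyte markers lay below 0 in 9 of 9, with a median of -0.04. The smallest p-values belonged to Acadm, a medium-chain acyl-CoA dehydrogenase (log2 fold change -0.08, SE 0.05), Cpt1b, the muscle carnitine palmitoyltransferase of the outer membrane (-0.15, SE 0.09), and Ogdh, a subunit of the 2-oxoglutarate dehydrogenase complex (-0.09, SE 0.05). Of the merged exons of Cpt1b, 81.4% overlap the read-through gene Gm44502 on the same strand, so its value is uncertain.

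The mean log2 level of the 32 PPAR targets, relative to the WT mean, was -0.28, -0.11, -0.13 and -0.23 in KO replicates 1 to 4, against -0.10, -0.02, 0.05 and 0.07 in WT replicates 1 to 4. The groups were just apart, with KO replicate 2 next to WT replicate 1. For the ERR targets the same mean was -0.003, -0.01, -0.07 and -0.02 in KO and -0.04, -0.02, 0.06 and -0.01 in WT, and the groups overlapped. The animals' order in Ppargc1a was not their order in the PPAR targets. KO replicate 4 had the highest Ppargc1a of the KO animals, at -0.19 relative to the WT mean, and the second-lowest PPAR target mean. WT replicate 1 had the highest Ppargc1a of all, at 0.19, and the lowest PPAR target mean of the WT animals.

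**Figure D4:**
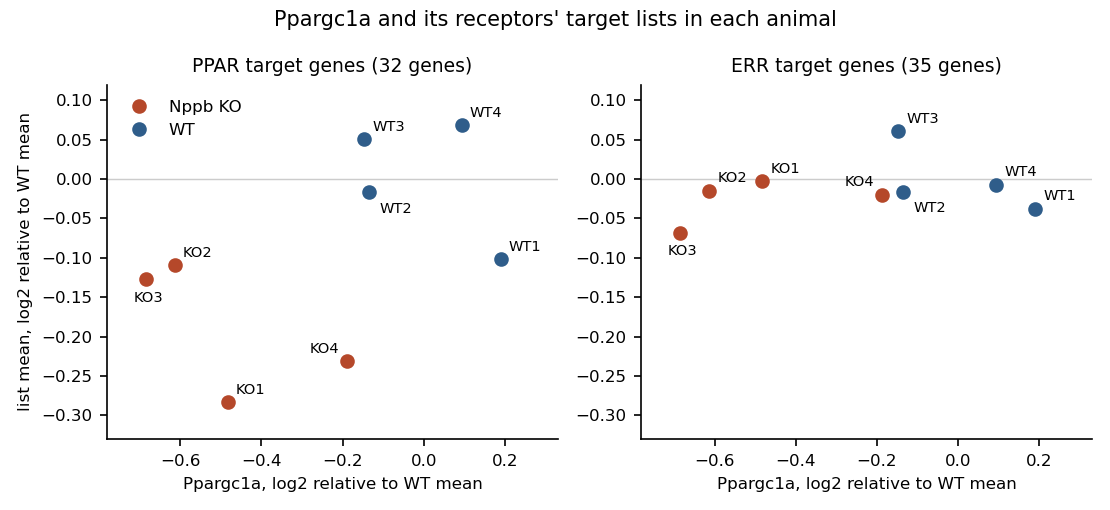
Mean log2 level of the tested PPAR targets (left) and ERR targets (right) on the vertical axes against Ppargc1a on the horizontal axes, each relative to the WT mean, with a point for each Nppb KO (red) and WT (blue) animal. PPAR target means lie from -0.28 to -0.11 in KO and from -0.10 to 0.07 in WT, whereas ERR target means overlap.

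Fat cells also express PPAR pathway genes, and their markers were read in the same libraries. Of 8 markers, 3 passed the filter on low values and none was at 0 in every library. Their sum ran from 401 to 508 normalized counts in KO and from 471 to 818 in WT, most of it Lipe, which heart muscle also expresses. Adipoq, the defining marker, had 3.30, 0.772, 4.09 and 3.38 normalized counts in KO, against 5.34, 6.87, 5.32 and 19.5 in WT, and did not overlap. At these few counts it did not pass the filter, so it was not tested. Over all tested genes, 1.74% had every KO animal below every WT animal. Pck1, which fat cells use to make glycerol, had an unadjusted limma p of 0.00193 and a log2 fold change of -2.33 (SE 0.60, adjusted p = 0.584 by limma). Smooth muscle markers lay above 0 in 4 of 4, with a median log2 fold change of 0.24 and sums of 4052 to 5353 normalized counts in KO and 3044 to 4515 in WT. Macrophage markers lay above 0 in 7 of 7, with a median of 0.16 and sums of 3189 to 3538 in KO and 2754 to 3569 in WT. None of these markers that were tested passed the limma threshold, and all these sums overlapped between the groups. The part of these cell types, cardiomyocytes included, in the values of Ppargc1a, Ppard and the target lists was not tested. Of the 3 brown fat markers, Ucp1 and Elovl3 were near 0. The other, Cidea, passed the filter, with a log2 fold change of 0.19. Their sum ran from 184 to 226 normalized counts in KO and from 166 to 209 in WT, and overlapped.

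Coregulators work with the PGC-1 proteins or against them on the same receptors. Neither edgeR nor DESeq2 called any gene of the coactivator, corepressor, upstream or partner factor lists described next. Of 19 other coactivators, none passed the limma threshold, 1 had an unadjusted p under 0.05, 12 had an estimate below 0 and the median was -0.01. Over all tested genes, 6.26% had an unadjusted limma p under 0.05, 49.1% had an estimate below 0 and the median was 0.002. The smallest p-values belonged to the histone acetyltransferases Crebbp (CBP), with a log2 fold change of -0.13 (SE 0.04, adjusted p = 0.670 by limma) and groups that did not overlap, Ncoa3 (-0.09, SE 0.06) and Ep300 (-0.07, SE 0.04). Every KO animal was below every WT animal for 1 of the 19, Crebbp, beside 1.74% of all tested genes. Of 15 other corepressors, none passed and 1 had an unadjusted p under 0.05, beside the same 6.26%. Among these corepressors 6 were below 0, beside 49.1%, and the median was 0.004. Tbl1x, a subunit of corepressor complexes, had an estimate of 0.08 (SE 0.06) and the histone deacetylase Hdac1 -0.11 (SE 0.09), both with overlapping groups.

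Of 43 tested genes known to act upstream of Ppargc1a, none passed the limma threshold, 25 were below 0 and the median was -0.02. Unadjusted p was under 0.05 for 5, each lower in KO, beside 3.29% of all tested genes lower at that level. Every KO animal was below every WT animal for 4, Mef2d, Crtc1, Akt2 and Stk11, beside 1.74% of all tested genes. Mef2d, a muscle transcription factor that activates Ppargc1a, had 1332, 1494, 1363 and 1397 normalized counts in KO, against 1547, 1528, 1625 and 1687 in WT, a log2 fold change of -0.19 (SE 0.05, adjusted p = 0.535 by limma). Flcn, the folliculin tumour suppressor, which holds Ppargc1a down in muscle, had an estimate of -0.27 (SE 0.09, adjusted p = 0.670 by limma) and overlapping groups. Crtc1, a coactivator of CREB, had -0.35 (SE 0.12, adjusted p = 0.722 by limma). Of 16 partner transcription factors of mitochondrial biogenesis, none passed, none had an unadjusted p under 0.05, 7 were below 0 and the median was 0.02. Gabpb1, a subunit of the GABP factor (also called NRF-2), had 0.23 (SE 0.12), the mitochondrial transcription factor Mterf1a 0.24 (SE 0.23) and Nrf1, an activator of respiratory chain genes, -0.07 (SE 0.07).

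**Figure D5:**
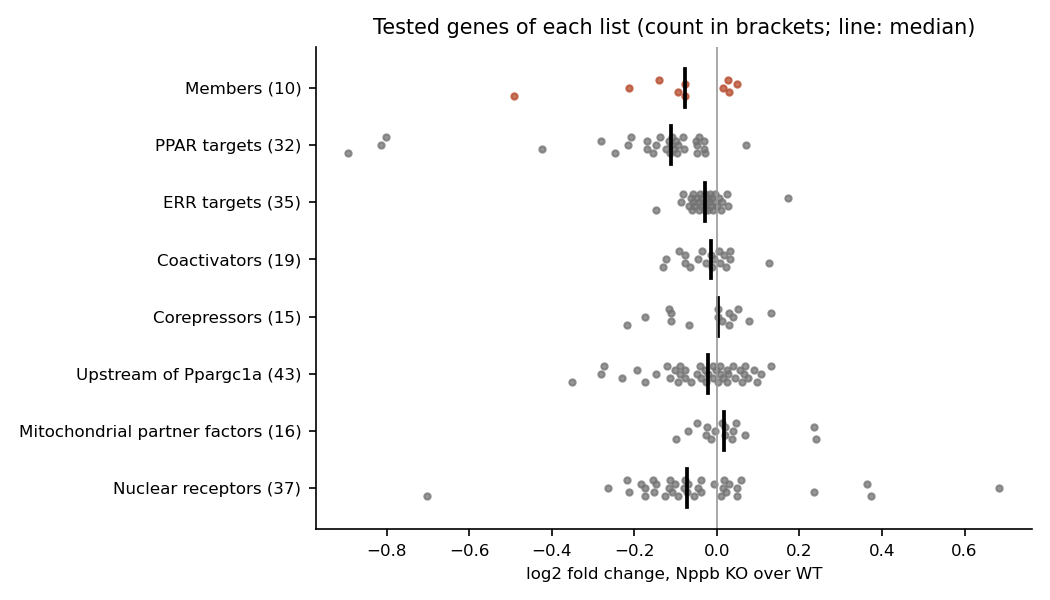
Log2 fold change, Nppb KO over WT (horizontal axis), of each tested gene in the lists, as points, with a line at each median and the number of genes in brackets. The PPAR targets lie left of 0 but for 1 gene, with a median of -0.11, and the ERR targets lie close to 0, with a median of -0.03.

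Likeness to Ppargc1a was measured over the 8 animals as the root mean square difference between the genes' log2 values, each centred on its own mean, among 12873 genes with a mean of at least 50. The nearest were Sergef (0.0860), Nfic (0.130), Setd1b (0.151), Spata7 (0.154) and Bicra (0.156), against a median of 0.320. The measure holds the difference between the groups as well as the spread within them. Nearest among the members were Ppard (0.219, rank 163), Ppargc1b (0.235, rank 350), Ppara (0.245, rank 537) and Perm1 (0.255, rank 816), while Esrra had 0.325, above the median.

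Exons of Esrra share 73 bases with Trmt112 on the opposite strand, and hold the microRNA gene Mir6990, which had no reads. No other member shares exons with another gene in the annotation.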

How the data were processed

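The deposited table of all genes gives a normalized count for each sample, a signal with no value below 0. The authors' own comparison was deposited beside it, as log2 fold changes (WT over KO), p-values and adjusted p-values. The submitters' processing notes name STAR and DESeq2 as tools and mm10 as the genome build. For their versions, the annotation and the counting rules nothing is given in the sources used here. All sample columns belonged to the study.

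Each deposited column held whole multiples of its smallest value above 0 (100% of values within 0.01 reads), which gave back the reads. Chi-square per degree of freedom was at least 4.84 for each pair of replicates, so no library was a copy of another. Symbols, coordinates and exon lengths came from GENCODE M21 on the same build, which matched 40254 identifiers.

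The main test was limma 3.58.1 in R 4.3.3, with a mean-variance trend and robust moderation, on log2(normalized count + 1). It ran on 16590 genes whose mean was at least 10, with Benjamini-Hochberg adjustment over all of them and a threshold of 0.05. Recovered reads were tested with edgeR 4.0.16 (quasi-likelihood; 2 genes called) and DESeq2 1.42.0 (23 genes called). The other alternatives changed the pseudocount, filter, scaling and variance model, added the replicate number as a block, or left out each animal in turn. Scripts were tested on simulated counts. What a replicate number stands for is not stated, and p-values reflect how these 8 animals vary. Depth limits precision chiefly for Ppard.

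The members and gene lists were chosen with earlier results of these data known. Named genes were the members, Nppb, the relatives, list genes past the threshold, the 3 genes of smallest p per pathway list, the 5 nuclear receptors of highest level and the 5 genes most like Ppargc1a. Any other gene was picked out once its values were known. Some items that these rules name are not reported here.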

Additional observations from a re-analysis of the deposited data

Results flagged for a closer look

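In 5 of 104 groups of 4 animals, covering the members, named genes reported here and summed marker levels, 1 animal stood far from the other 3 relative to the group's range (a gap above Dixon's critical value). Chance gives about 1 such group in 20, or 5.2 of 104. Among the members this was the WT group of Ppara, where replicate 1 had 1140 normalized counts and the others 1070 to 1079. In KO replicate 4, Pparg had 229 normalized counts against 187 to 190 in the other KO animals, and Bicra 126 against 94.0 to 98.8. In WT replicate 2, Tbl1x had 987 against 895 to 910. Summed erythroid markers in WT replicate 1 came to 39455 normalized counts, against 54819 to 57821 in the other WT animals.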

How the results depend on the processing

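Ppargc1a had a log2 fold change of -0.59 to -0.43 over 19 alternatives and was called under 2 of them, DESeq2 and the replicate block, so the number of members called was 0 with limma, 1 with DESeq2 and 1 with the block. With each animal left out in turn, its limma adjusted p ran from 0.0599 (without KO replicate 4, log2 fold change -0.59) to 0.957, and the number of members called was 0 each time. The number of genes called, 2 in limma, was 5 with no low-value filter, 4 with sample weights, 23 with DESeq2 and 1 to 6 with an animal left out (6 without WT replicate 2, 4 without KO replicate 4). Whether the replicate numbers pair the animals is not stated and cannot be told from the values. Correlations of same-numbered deviations were -0.07 to 0.03, and 1 of 8 animals correlated best with its own number. The block gave Ppargc1a an adjusted p of 0.0192 and called 3 genes, 0.0181% of those tested, each lower in KO. Signs reversed for members close to 0: Nrip1 with sample weights (-0.0084) and in its range without single animals (-0.039 to 0.080), Esrrg (-0.015 to 0.044) and Esrrb (-0.0055 to 0.063). The median of the coactivators ran from -0.036 (without WT replicate 1) to 0.0010 without single animals. The PPAR target median ran from -0.13 to -0.09 and the ERR target median from -0.05 to -0.01. The ratios kept their direction under all alternatives. Without an animal the smallest exact p the ratios allow is 0.0571 and with the block 0.125, so those designs cannot reach 0.05. The cause of these differences was not tested.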

Other observations

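The members that bind DNA belong to the nuclear receptor family, of which 37 of 49 listed genes were tested. None passed the threshold with limma, edgeR or DESeq2, 25 were below 0 and the median log2 fold change was -0.07. By level per kilobase of merged exons, the 5 most abundant were Nr1d2 (REV-ERBβ, a clock repressor; 596 in KO, 614 in WT), Esrra, Nr3c1 (the glucocorticoid receptor; 375 in KO, 371 in WT), Rxrg (367 in KO, 375 in WT) and Ppara. Of the other members, Rxra ranked 6, Esrrg 13, Esrrb 21 and Ppard 28 in the family. Some ranks depend on the length used. By the longest transcript, Thra, a thyroid hormone receptor, ranked 5 (383 in KO, 384 in WT), Ppara 6, Rxra 7, Esrrb 20 and Ppard 26. Unadjusted limma p was under 0.05 for 5 receptors lower in KO and 2 higher, beside 3.29% and 2.98% of all tested genes.

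Nr2f6, an orphan receptor, was picked out after its values were seen as the receptor with every KO animal above every WT animal. It had 191, 188, 215 and 215 normalized counts in KO, against 184, 178, 160 and 166 in WT (log2 fold change 0.23, SE 0.09, limma adjusted p = 0.753). Of the merged exons of Nr2f6, 54.4% overlap Ocel1 on the opposite strand. Whether counting kept the strands apart is not stated, so its value is uncertain. Ppard was the receptor with the opposite order. Each order was thus held by 1 of the 37 tested receptors. Over all tested genes, 2.03% had every KO animal above every WT animal and 1.74% had the opposite order. Thrb, a thyroid hormone receptor, had a log2 fold change of -0.18 (SE 0.08), Rarb, a retinoic acid receptor, -0.17 (SE 0.07) and Rora, a clock activator, -0.13 (SE 0.06), each with an unadjusted limma p under 0.05 and overlapping groups. The same limit holds for Rarb, of whose merged exons 34.1% overlap Top2b on the opposite strand.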
